A study of Mus musculus with 13 samples.

Results

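The endoplasmic reticulum (ER) and secretory machinery was followed across 6 populations of mouse spleen leukocytes through 46 genes chosen by their function, and 45 of them had a probe set assigned to no other gene. The measured genes were 12 chaperones and folding enzymes, 8 stress sensors and genes of ER-associated degradation (ERAD), 14 genes of translocation and signal peptide cleavage, 5 subunits of the oligosaccharyltransferase, and 6 genes of cargo export and retrieval. The probe set of the remaining gene, Sec61g, is annotated to several genes and is not reported. All 45 reached a signal of 50 in every array of at least 1 population and so entered the test, in which 9380 genes took part.

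The cells came from untreated wild-type C57BL/6 spleens that had been digested with collagenase before sorting. They were plasmacytoid dendritic cells (pDCs), CD8α conventional dendritic cells (CD8α cDCs) and CD11b cDCs, each on 2 arrays from pools of 10 to 15 mice, and NK cells, on 2 arrays from pools of 6 to 10 mice. B cells were on 3 arrays, of which replicate 1 pooled 3 mice, whereas replicates 2 and 3 are described as follicular B cells of 2 mice and 1 mouse. CD8 T cells were on 2 arrays of 1 mouse each. Ages are given as 6 to 8 weeks for CD8α cDC replicate 1 and the CD8 T cells, and as 6 weeks for B cell replicates 2 and 3. With so few arrays, p-values measure only the spread between these samples, and pooled spleens hide the spread between mice.

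Proteins destined for secretion or for the cell surface enter the ER through the Sec61 channel, lose their signal peptide, receive N-linked sugars and are folded by chaperones before vesicles carry them to the Golgi. When unfolded proteins accumulate, the sensors Ire1α (encoded by Ern1), Atf6 and Perk (encoded by Eif2ak3) start the unfolded protein response, which raises chaperones and degradation factors, in part through the transcription factor Xbp1. Plasma cells are the classical secretory leukocytes, and pDCs, which can release large amounts of type I interferon, are known for a rough ER that resembles theirs.

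On each array 49.1 to 58.3% of probe sets lay below a signal of 20 (MAS5, the linear Affymetrix summary of a probe set's brightness), which served as the floor before values were put on the log2 scale. Replicate arrays correlated at r = 0.934 to 0.987 over the genes tested. The 6 DC arrays were scanned in a period and on a chip lot of their own, so that differences between DCs and lymphocytes cannot be told apart from period and lot. All 6 DC arrays carried the transcript Xist of the inactive X chromosome and 6 of the 7 lymphocyte arrays carried transcripts of the Y chromosome, so sex cannot be told apart from this difference either, whereas the comparisons among DC subsets lie within 1 period and 1 lot. The NK cell arrays had ratios of the 3′ to the 5′ GAPDH control probe sets of 23.9 and 11.2, against 3.46 to 6.30 on the other arrays. On 3 arrays, B cell replicate 2 and both CD8 T cell arrays, transcripts of the sex chromosomes went against the labelled sex, and counts without these arrays are given where they moved. B cell replicate 1 stood apart from the other B cell arrays in this gene set and is treated separately below. The marker lists separated some populations better than others. The summed signal of 4 pDC markers was 13622 to 16535 in pDCs and 4201 or less elsewhere, that of the 3 measured of 4 NK cell markers was 8059 or more in NK cells and 1305 or less elsewhere, and that of the 3 measured of 4 B cell markers was 6298 or more in B cells and 365 or less elsewhere. The 4 CD8 T cell markers summed to 8295 or more in CD8 T cells and to 1326 or less elsewhere. The 4 markers of CD8α cDCs summed to 15293 to 15465 in CD8α cDCs but also to 10799.7 to 11304 in pDCs, and to 3748 or less elsewhere. The 3 measured of 4 markers of CD11b cDCs summed to 2049 to 2186 in CD11b cDCs, to 1094 to 1661 in B cells, to 1104 to 1108 in pDCs and to 207 or less elsewhere. The summed signal of the 5 measured of 6 macrophage and monocyte markers was 4739.9 to 5229.8 in CD11b cDCs and 856 or less elsewhere, with Csf1r at 3187 and 3473, Adgre1 at 1299.8 and 1505 and C1qa at 63.0 and 58.3 there. Its part in the results for CD11b cDCs was not tested.

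pDCs and CD8α cDCs carried the highest levels of most of the machinery. The highest population mean was in CD8α cDCs for 19 of the 45 genes (18.7% of all genes tested) and in pDCs for 16 (14.9% of all genes), whereas 4 peaked in B cells (15.1%), 3 in CD8 T cells (18.4%), 1 in NK cells (21.5%) and 2 in CD11b cDCs (11.5%). Every array of the population lay above every other array for 14 genes in CD8α cDCs (11.6% of all genes), 11 in pDCs (8.75%), 2 in CD8 T cells (9.61%), 1 in NK cells (12.2%), 1 in B cells (5.25%) and 0 in CD11b cDCs (6.55%). In the other direction, every array lay below all others for 10 genes in CD8 T cells (7.65%), 4 in B cells (3.55%), 4 in CD11b cDCs (2.96%), 2 in NK cells (6.07%), 0 in pDCs (5.12%) and 0 in CD8α cDCs (7.74%).

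**Figure D1:**
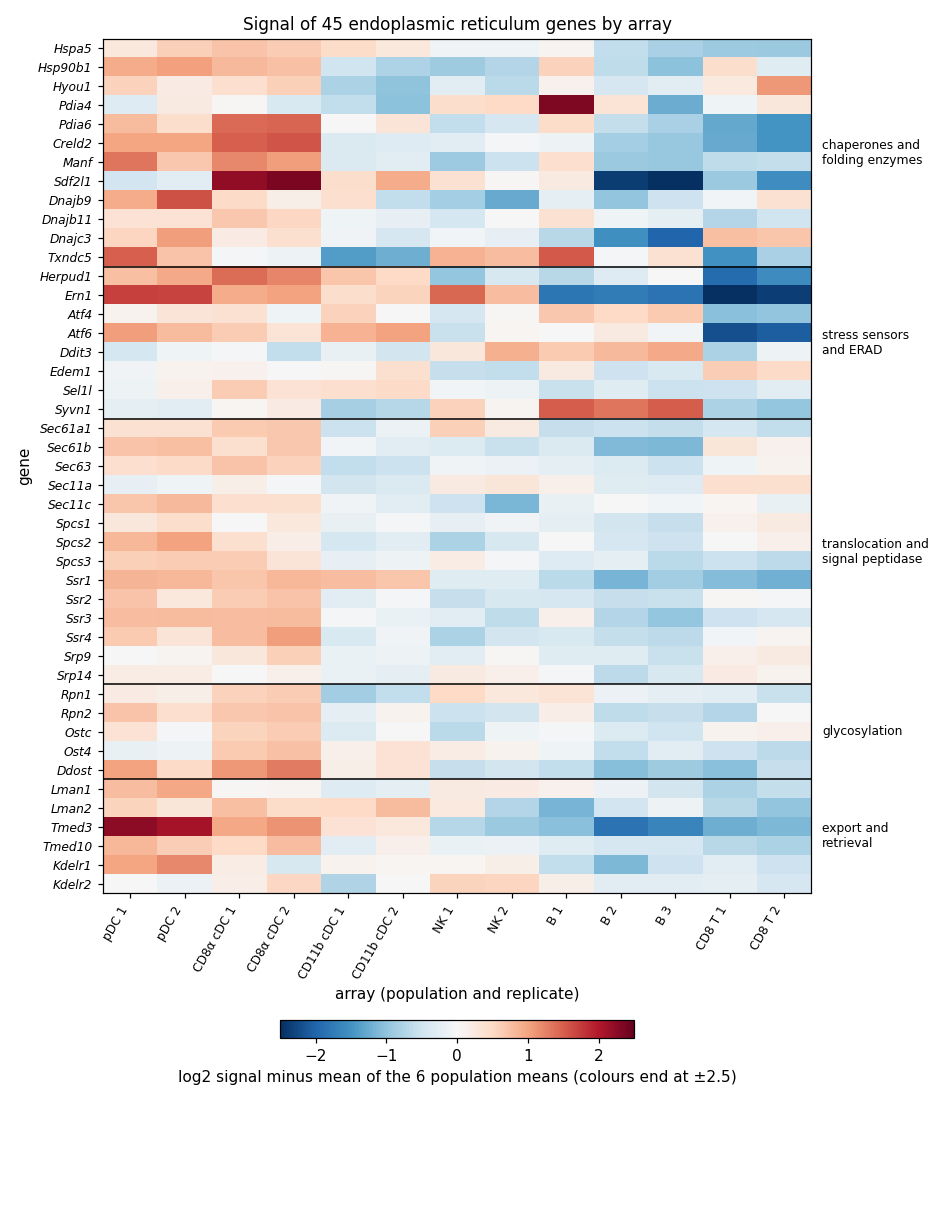
Colour shows the log2 signal of each of the 45 genes (rows, in 5 functional groups) on each of the 13 arrays (columns), less the mean of the 6 population means. The pDC and CD8α cDC columns are mostly red and the CD8 T cell columns mostly blue in the stress and ERAD group. B cell replicate 1 is redder than the other B cell arrays among the 12 chaperones.

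By the moderated F test of limma, 43 of the 45 genes differed among the 6 populations, against 82.8% of all genes, so the share called says little by itself, whereas the direction differed by population. Against the mean of the other 5 populations, 27 genes were higher in pDCs (18.6% of all genes) and 0 lower (21.6%), with a median log2 difference of 0.59 against -0.09 for all genes. At an unadjusted p under 0.05, 0 were lower. In CD8α cDCs 30 genes were higher (23.4% of all genes) and 0 lower (26.6%), with 0 lower at an unadjusted p under 0.05 and a median of 0.72 against -0.07. In bulk samples, fewer cells of a type and less RNA per cell cannot be told apart. In CD11b cDCs 5 were higher (18.4%) and 7 lower (19%). In NK cells 7 were higher (25.4%) and 13 lower (24.5%), and this split became 2 and 19 under invariant-rank scaling, which moved the median of all genes in NK cells from 0.01 to -0.14. In B cells 3 were higher (22.6%) and 25 lower (28%), with a median of -0.45 against -0.03, and in CD8 T cells 4 were higher (23%) and 22 lower (29.2%), with a median of -0.56 against -0.09. The CD8 T cell split became 8 and 10 with a term for the set of sample names. Where leaving out an array left a population 1 array, calls over all genes for its own comparison also fell. Without B cell replicate 1, calls over all genes for CD11b cDCs rose from 3508 to 4271. Leaving out pDC replicate 1 reduced the pDC count to 16, and leaving out CD8α cDC replicate 1 reduced the CD8α cDC count to 17. The count for CD8 T cells was 17 without their replicate 1. For CD11b cDCs the count was 6 without their replicate 1 and 19 without B cell replicate 1. For NK cells it was 6 without their replicate 1, 11 without their replicate 2, and 13 without CD8α cDC replicate 2 or without CD11b cDC replicate 1.

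The means of the chaperones on the 2 CD8α cDC arrays and the 2 pDC arrays lay above those of every other array. The stress and ERAD group was lowest on the CD8 T cell arrays, and the export group was highest on the pDC arrays. The group of 5 oligosaccharyltransferase subunits was highest on the CD8α cDC arrays.

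**Figure D2:**
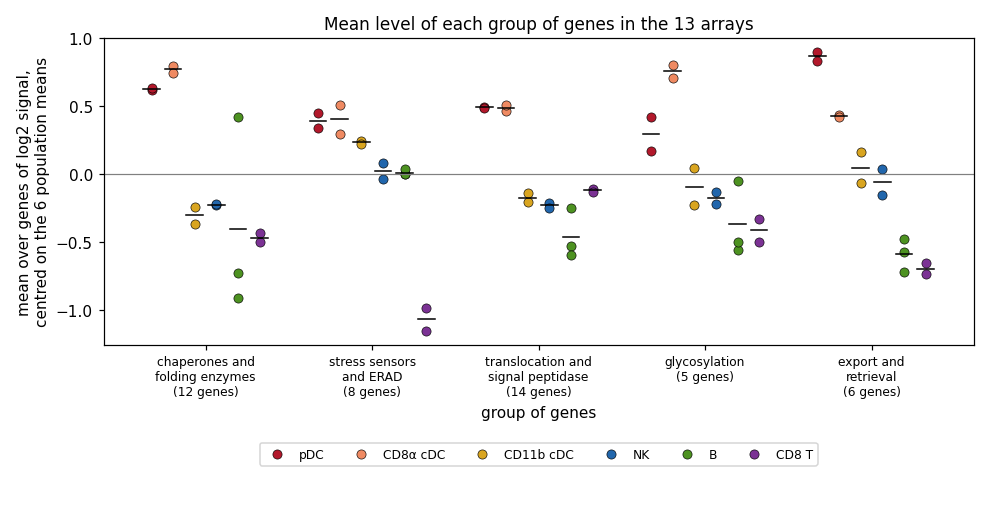
Points are the mean over the genes of a group of the log2 signal on 1 array, centred on the 6 population means; short lines are population means, and the 5 groups of genes lie along the horizontal axis. The 3 B cell points spread from -0.91 to 0.42 among chaperones, whereas both CD8 T cell points of the stress and ERAD group lie below all others.

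Promoters of the chaperone genes are known to hold the ER stress response element (ERSE), to which Atf6 and Xbp1 bind, and the related ERSE-II. Of the 45 genes, 35 had an entry in the RefSeq promoter table (GRCm38.p6, 250 bases before to 50 bases after the start of transcription). ERSE was searched on both strands as CCAAT, 9 free bases and CCACG, and ERSE-II as ATTGG, 1 free base and CCACG. Each contains the letters CCACG, and the sites found for them do not overlap. ERSE was found in 6 of the 35 genes, against 0.137% of all 27025 genes of the table, and ERSE-II in 2, against 0.044%. The genes with ERSE were 5 chaperones, Hspa5, Hsp90b1, Pdia6, Dnajc3 and Creld2, and the ubiquitin ligase gene Syvn1. Those with ERSE-II were the chaperone Dnajb11 and Herpud1. None of the 10 translocation, 4 oligosaccharyltransferase and 4 export genes in the table held either motif in this window. The sites are shown because they mark which genes of the set hold these letters, in the 5′ to 3′ direction of the gene, with the motif in capitals and 5 flanking bases on either side. Motifs on the opposite strand read CGTGG to ATTGG.
Hspa5 (chr2:34772020-34772048, plus strand), 65 to 47 bases before the start: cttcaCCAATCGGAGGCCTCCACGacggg
Hsp90b1 (chr10:86705633-86705661, minus strand), 212 to 194 bases before the start: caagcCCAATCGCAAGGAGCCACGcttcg
Hsp90b1, opposite strand (chr10:86705528-86705556, minus strand), 107 to 89 bases before the start: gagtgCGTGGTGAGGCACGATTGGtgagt
Pdia6 (chr12:17266486-17266514, plus strand), 98 to 80 bases before the start: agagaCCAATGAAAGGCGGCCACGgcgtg
Dnajc3 (chr14:118937822-118937850, plus strand), 105 to 87 bases before the start: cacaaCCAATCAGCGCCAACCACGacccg
Creld2, opposite strand (chr15:88819515-88819543, plus strand), 126 to 108 bases before the start: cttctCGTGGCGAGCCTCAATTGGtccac
Syvn1 (chr19:6046527-6046555, plus strand), 44 to 26 bases before the start: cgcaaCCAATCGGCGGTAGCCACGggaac
Herpud1 (chr8:94386372-94386392, plus strand), 52 to 42 bases before the start: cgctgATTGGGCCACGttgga
Dnajb11 (chr16:22857847-22857867, plus strand), from 7 bases after the start: cggcgATTGGCCCACGcctgg
The 2 sites of Hsp90b1 do not overlap. The genes that hold either motif did not share a population of highest expression: the population means of Hsp90b1 and Dnajc3 were highest in pDCs, that of Syvn1 in B cells, and those of Hspa5, Pdia6, Creld2, Herpud1 and Dnajb11 in CD8α cDCs.

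Among the chaperones, 8 of 12 were higher in CD8α cDCs than in the mean of the other populations (23.4% of all genes) and 7 of 12 were higher in pDCs (18.6%). Sdf2l1, a cofactor of the major ER chaperone BiP, was the most variable member of the group, with signals of 89.1 and 103 in pDCs, 571 and 630.0 in CD8α cDCs and 166 and 233 in CD11b cDCs, against 161 and 127 in NK cells, 144, 23.8 and 21.3 in B cells and 65.1 and 41.8 in CD8 T cells. The CD8α cDC arrays lay above all others, and B cell replicates 2 and 3 were close to the floor. Its CD8α cDC level exceeded the mean of the others by 2.74 ± 0.55 (SE; adjusted p = 0.00203) on the log2 scale, whereas pDCs minus the mean of both cDC subsets was -1.84 ± 0.62 (SE; adjusted p = 0.0385), a call lost under 16 of 27 alternatives. Creld2, an ER stress-induced protein with disulphide isomerase activity, had signals of 1198 and 1191 in pDCs, 1689.8 and 1786 in CD8α cDCs and 467 and 479 in CD11b cDCs, against 492 and 593 in NK cells, 554, 334 and 314 in B cells and 249.8 and 215 in CD8 T cells. CD8α cDCs and pDCs stood above the other 4 populations, and the step from CD8α cDCs to CD11b cDCs was 1.88 ± 0.25 (SE; adjusted p = 0.000292), which passed in all 27 alternatives. Pdia6, a protein disulphide isomerase, showed 1936 and 1517 in pDCs, 2986 and 3071 in CD8α cDCs and 1116 and 1392 in CD11b cDCs, against 722 and 832 in NK cells, 1527, 738 and 634 in B cells and 456 and 396 in CD8 T cells. Its level in CD8α cDCs exceeded the mean of the others by 1.73 ± 0.27 (SE; adjusted p = 0.000344), and CD8 T cells minus the mean of the others was -1.67 ± 0.27 (SE; adjusted p = 0.000455).

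Hspa5 encodes BiP itself and had signals of 7207 and 9106 in pDCs, 9843 and 9317 in CD8α cDCs and 8330.4 and 7277 in CD11b cDCs, against 5649.9 and 5610.3 in NK cells, 6323, 3931 and 3420.5 in B cells and 3216 and 3189 in CD8 T cells. The 6 DC arrays lay above all lymphocyte arrays and the CD8 T cell arrays were the lowest. The differences between neighbours in the order of population means did not pass the test. A further probe set of Hspa5 also had the DC means above the lymphocyte means, but its lowest mean, 724, was in NK cells. A dimmer one had its highest mean, 375, in CD8 T cells. Hsp90b1, the ER paralogue of the cytosolic Hsp90 chaperone, showed 2770.0 and 2947 in pDCs, 2534 and 2407 in CD8α cDCs and 1020.5 and 844 in CD11b cDCs, against 786 and 872 in NK cells, 2157, 927 and 709 in B cells and 1973 and 1167 in CD8 T cells. Both CD11b cDC arrays lay below every pDC and CD8α cDC array, with CD8α minus CD11b cDCs at 1.41 ± 0.43 (SE; adjusted p = 0.0414). Manf, a secreted and ER-resident stress protein, had signals of 2709 and 1721 in pDCs, 2456 and 2227 in CD8α cDCs and 837 and 899.5 in CD11b cDCs, against 568 and 736 in NK cells, 1444, 565 and 557 in B cells and 689 and 712 in CD8 T cells. The 4 pDC and CD8α cDC arrays were the highest. Dnajb9, a co-chaperone of BiP, showed 987 and 1563 in pDCs, 725 and 573 in CD8α cDCs and 694 and 337 in CD11b cDCs, against 286 and 216 in NK cells, 442, 261 and 361 in B cells and 491 and 676 in CD8 T cells. Both pDC arrays were the highest for Dnajb9, which differed from the cDC mean by 1.15 ± 0.33 (SE; adjusted p = 0.0172). Dnajc3, an inhibitor of the kinase Perk, had signals of 426 and 605 in pDCs, 339 and 388 in CD8α cDCs and 276 and 219.7 in CD11b cDCs, against 283 and 254 in NK cells, 182, 102 and 74.8 in B cells and 497 and 474 in CD8 T cells, so that B cells lay lowest, -1.69 ± 0.23 (SE; adjusted p = 0.000135) from the mean of the others, and the CD8 T cells lay with the pDCs at the top. Txndc5, another disulphide isomerase, was higher in pDCs than in the cDC mean by 1.80 ± 0.39 (SE; adjusted p = 0.00369). It showed 1598 and 927 in pDCs, 550 and 521 in CD8α cDCs and 216 and 242 in CD11b cDCs. In lymphocytes it showed 1039 and 963 in NK cells, 1638, 549 and 741 in B cells and 199.6 and 323 in CD8 T cells. The signals of Hyou1 and Dnajb11, further chaperones, ranged over the 13 arrays from 171 to 734 and from 391 to 1033. Pdia4 ranged from 41.4 to 496, and its highest array was B cell replicate 1. The F test did not call it among the 6 populations (adjusted p = 0.6).

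Of the 8 stress and ERAD genes, Ern1 varied most. Its signals were 923 and 922 in pDCs, 538 and 569 in CD8α cDCs and 383 and 415 in CD11b cDCs, against 769 and 485 in NK cells, 81.6, 84.9 and 79.3 in B cells and 48.1 and 55.3 in CD8 T cells, on a probe set of the gene on chromosome 11. The pDCs lay highest and above both cDC subsets, by 0.97 ± 0.18 (SE; adjusted p = 0.00136), and the B and CD8 T cells lay far below every DC and NK cell array. The step from CD11b cDCs to B cells was 2.28 ± 0.19 (SE; adjusted p = 3.4e-06), whereas NK cells and CD8α cDCs did not differ by the test. A further, much dimmer probe set of Ern1 also had its highest mean, 80.8, in pDCs. Its lowest mean, 20.9, was in CD11b cDCs, with 37.4 in B cells and 26.5 in CD8 T cells. Atf6, the second transmembrane sensor, showed 382 and 317 in pDCs, 286 and 232 in CD8α cDCs and 335 and 369 in CD11b cDCs, against 125 and 190.2 in NK cells, 182, 215 and 175 in B cells and 39.9 and 44.1 in CD8 T cells. CD8 T cells stood alone at the bottom, -2.56 ± 0.17 (SE; adjusted p = 7.44e-07) from the mean of the others, and the CD11b cDC, pDC and CD8α cDC means did not differ between neighbours. Herpud1, which links ubiquitin ligases of ERAD, had signals of 2231 and 2557 in pDCs, 3498 and 3061 in CD8α cDCs and 2121 and 1869 in CD11b cDCs, against 678 and 1001 in NK cells, 822, 1062 and 1333 in B cells and 346 and 446 in CD8 T cells. All 6 DC arrays lay above all lymphocyte arrays, the step from CD11b cDCs to B cells being 0.92 ± 0.24 (SE; adjusted p = 0.00966), and the CD8 T cells were lowest.

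Syvn1, the ubiquitin ligase Hrd1, had another order, with signals of 256 and 253 in pDCs, 314 and 350.2 in CD8α cDCs and 171 and 184 in CD11b cDCs, against 455 and 318 in NK cells, 862, 762 and 868 in B cells and 175 and 156 in CD8 T cells. The 3 B cell arrays were above all others and exceeded the mean of the others by 1.74 ± 0.12 (SE; adjusted p = 1.2e-06), which passed in all 25 alternatives. Sel1l, the partner of Hrd1, showed 279 and 333 in pDCs, 473 and 395 in CD8α cDCs and 410.4 and 429 in CD11b cDCs, against 293 and 280.3 in NK cells, 209, 249.9 and 211 in B cells and 215 and 254 in CD8 T cells. All cDC arrays lay above all others, with pDCs minus the cDC mean at -0.48 ± 0.15 (SE; adjusted p = 0.031). Ddit3, the stress factor CHOP, showed 115 and 144 in pDCs, 150.3 and 101 in CD8α cDCs and 137 and 114 in CD11b cDCs, against 191 and 289.8 in NK cells, 245, 272 and 299.8 in B cells and 89.9 and 142 in CD8 T cells, and was higher in B cells than in the mean of the others by 0.96 ± 0.19 (SE; adjusted p = 0.00183). That call was not kept in all alternatives. A further, dimmer probe set of Ddit3 had its highest mean, 130, in CD11b cDCs, with 122 in B cells. Atf4, translated when Perk is active, ranged from 614 to 2020.1 and was also higher in B cells, by 0.73 ± 0.16 (SE; adjusted p = 0.00369), and lower in CD8 T cells, at -1.22 ± 0.19 (SE; adjusted p = 0.000366). A further probe set of Atf4 had its highest mean, 977, in CD8 T cells instead, so the order of the populations for Atf4 depends on the probe set. Edem1, a lectin that sorts misfolded glycoproteins to ERAD, ranged from 245 to 575 and was higher in CD8 T cells, by 0.66 ± 0.18 (SE; adjusted p = 0.0122), than in the mean of the others. This call was not kept in all alternatives. A further probe set of Edem1 had its highest mean, 507, in CD8α cDCs, with 444 in CD8 T cells.

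**Figure D3:**
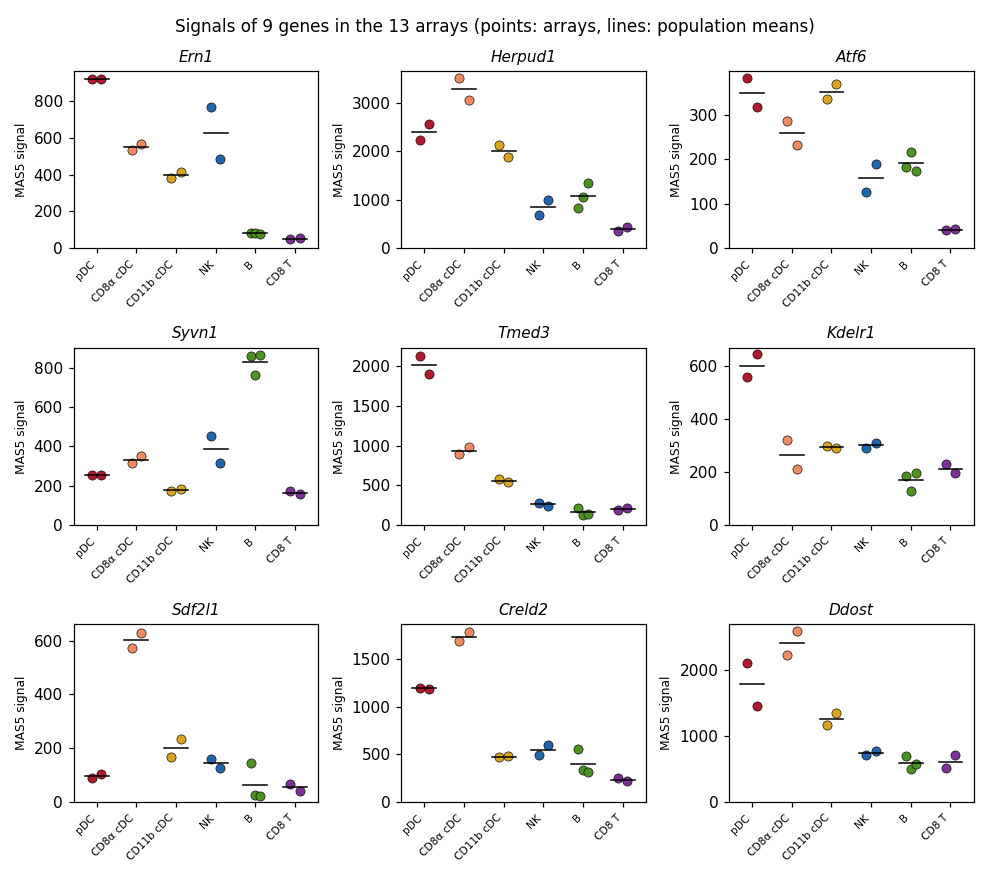
Each panel gives the MAS5 signal (linear, from 0) of a gene on the 13 arrays, 2 or 3 points per population with a line at their mean. Ern1, Tmed3 and Kdelr1 are highest in pDCs, Sdf2l1, Creld2, Ddost and Herpud1 in CD8α cDCs, and Syvn1 in B cells, whereas Atf6 is lowest in CD8 T cells.

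Over the translocation genes, the highest and the lowest population mean of a gene lay 0.55 to 1.98 apart on the log2 scale. In pDCs 11 of the 14 were higher than the mean of the other populations (18.6% of all genes) and in CD8α cDCs 10 were (23.4%), with none lower in either, and in B cells 12 were lower (28%). Ssr1, a subunit of the translocon-associated protein complex, had signals of 1979 and 1948 in pDCs, 1774 and 1932 in CD8α cDCs and 1877 and 1772 in CD11b cDCs, against 886 and 885 in NK cells, 681, 488 and 599.5 in B cells and 516 and 477 in CD8 T cells. All DC arrays were above all lymphocyte arrays and neighbouring DC subsets did not differ by the test, whereas the step from CD11b cDCs to NK cells was 1.04 ± 0.18 (SE; adjusted p = 0.000688). Sec61b, a subunit of the channel, showed 2951 and 3028 in pDCs, 2359 and 2868 in CD8α cDCs and 1702 and 1497 in CD11b cDCs, against 1409.7 and 1219 in NK cells, 1384, 829 and 820.3 in B cells and 2198 and 1923 in CD8 T cells. The pDC arrays were highest and B cell replicates 2 and 3 lowest. Sec11c, a catalytic subunit of the signal peptidase, showed 2883 and 3097 in pDCs, 2360.0 and 2353 in CD8α cDCs and 1672 and 1471 in CD11b cDCs, against 1248 and 803 in NK cells, 1565, 1755 and 1695 in B cells and 1829 and 1565 in CD8 T cells. NK cells were lowest for Sec11c, -0.99 ± 0.16 (SE; adjusted p = 0.00049) from the mean of the others, and pDCs were highest, 0.64 ± 0.18 (SE; adjusted p = 0.0175) from the cDC mean.

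The further signal peptidase subunit Spcs2 showed 2304 and 2613 in pDCs, 1722 and 1458 in CD8α cDCs and 955 and 1065 in CD11b cDCs, against 750.2 and 986 in NK cells, 1285, 978 and 913 in B cells and 1314 and 1419.7 in CD8 T cells. It exceeded the cDC mean in pDCs by 0.96 ± 0.18 (SE; adjusted p = 0.0018), a call kept in all 27 alternatives. Spcs1, another subunit, had 2598 and 2884 in pDCs, 2159.5 and 2548 in CD8α cDCs and 1877 and 2090.3 in CD11b cDCs, against 1849 and 2017 in NK cells, 1809, 1561 and 1434 in B cells and 2312 and 2486 in CD8 T cells. Spcs3 had 1737 and 1771 in pDCs, 1777 and 1433 in CD8α cDCs and 991 and 1055 in CD11b cDCs, against 1299 and 1119 in NK cells, 919, 977 and 723 in B cells and 793 and 734 in CD8 T cells. Spcs3 was higher in CD8α than in CD11b cDCs by 0.64 ± 0.19 (SE; adjusted p = 0.0368). The mean of each of the 3 Spcs genes was highest in pDCs on the probe set used. A further probe set of Spcs1 had its highest mean, 1053, in CD8 T cells, with 968 in pDCs. For Sec61a1, the channel pore, signals were 2529 and 2525 in pDCs, 3036 and 3079.7 in CD8α cDCs and 1328 and 1746 in CD11b cDCs, against 2917 and 2256 in NK cells, 1298, 1333 and 1284 in B cells and 1431 and 1260.0 in CD8 T cells. For Sec63, which couples BiP to the channel, they were 334 and 348 in pDCs, 405 and 370.3 in CD8α cDCs and 162 and 171 in CD11b cDCs, against 234 and 225 in NK cells, 211, 196 and 172 in B cells and 230.1 and 264 in CD8 T cells. Both were higher in CD8α than in CD11b cDCs, by 1.01 ± 0.18 (SE; adjusted p = 0.00269) and by 1.22 ± 0.16 (SE; adjusted p = 0.000266), in all 27 alternatives. A further probe set of each went the other way. Its means in CD8α and CD11b cDCs were 241 and 261 for Sec61a1 and 101 and 108 for Sec63. The remaining probe sets of both genes were higher in CD8α cDCs. Those of Sec61a1 beyond the one used had their highest mean in pDCs or CD8 T cells. The other translocon-associated subunits differed in the same sense between pDCs and B cells. Ssr2 showed 533 and 387 in pDCs, 500.0 and 534 in CD8α cDCs and 272 and 316 in CD11b cDCs, against 217 and 245 in NK cells, 242, 218 and 221 in B cells and 332 and 315 in CD8 T cells. Ssr3 showed 2387 and 2398 in pDCs, 2379 and 2416 in CD8α cDCs and 1363 and 1240.4 in CD11b cDCs, against 1140.3 and 897 in NK cells, 1516, 841 and 718 in B cells and 972 and 1040.4 in CD8 T cells. Ssr4 showed 1886 and 1506 in pDCs, 2054 and 2487 in CD8α cDCs and 928 and 1132 in CD11b cDCs, against 690.2 and 875 in NK cells, 926, 791 and 764 in B cells and 1143 and 1265 in CD8 T cells. For each of the 3, both pDC arrays lay above all B cell arrays, but the direction of Ssr4 turned when all its probe sets were averaged (log2 difference -0.17). Of the signal recognition particle subunits, Srp9 ranged from 679.6 to 1513, and Srp14 showed 2416 and 2415 in pDCs, 2104 and 2314 in CD8α cDCs and 1902 and 1791 in CD11b cDCs, against 2470.0 and 2313 in NK cells, 2073, 1352 and 1604 in B cells and 2453 and 2242 in CD8 T cells. Srp14 was 1 of the 2 genes not called among populations (adjusted p = 0.0582). The signal peptidase subunit Sec11a ranged from 1437 to 2668 and was higher in CD8 T cells, by 0.50 ± 0.14 (SE; adjusted p = 0.0127).

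The oligosaccharyltransferase, which attaches sugars to nascent chains, was highest in CD8α cDCs for the 5 subunits of the gene set, but not for the 6 other subunits measured in a wider list of secretory genes. Of those, Stt3a, Stt3b and Magt1 had their highest mean in pDCs, Dad1 and Krtcap2 in NK cells and Tusc3 in CD8 T cells. The catalytic subunit Stt3b had signals of 873 and 892 in CD8α cDCs against 1747 and 1879 in pDCs, and was lower in CD8α cDCs than in the mean of the others, at -0.52 ± 0.18 (SE; adjusted p = 0.035). The 5 of the gene set were called higher in CD8α cDCs than in the mean of the others, against 23.4% of all genes. Ddost had signals of 2106 and 1456 in pDCs, 2223 and 2580.0 in CD8α cDCs and 1162 and 1343 in CD11b cDCs, against 709.7 and 763 in NK cells, 688, 504 and 568 in B cells and 509.7 and 709.7 in CD8 T cells, with CD8α cDCs above the mean of the others by 1.43 ± 0.18 (SE; adjusted p = 9.73e-05). Its B, NK and CD8 T cell arrays lay below every DC array. Rpn1 showed 1861 and 1779 in pDCs, 2425 and 2527 in CD8α cDCs and 888 and 1063 in CD11b cDCs, against 2290.1 and 1943 in NK cells, 2040.2, 1469 and 1377 in B cells and 1333 and 1098 in CD8 T cells. Ost4 showed 1303 and 1343 in pDCs, 2309 and 2442 in CD8α cDCs and 1616 and 1902 in CD11b cDCs, against 1673 and 1577 in NK cells, 1363, 969 and 1206 in B cells and 1032 and 938 in CD8 T cells. CD11b cDCs were the lowest population for Rpn1, -0.88 ± 0.17 (SE; adjusted p = 0.00168) from the mean of the others, but second highest for Ost4. Ost4 was lower in pDCs than in the cDC mean, at -0.62 ± 0.16 (SE; adjusted p = 0.0104). Rpn2 had signals of 872 and 711 in pDCs, 844 and 869.7 in CD8α cDCs and 456 and 565 in CD11b cDCs, against 364 and 386 in NK cells, 597, 342 and 355 in B cells and 319 and 537 in CD8 T cells, and Ostc ranged from 380.3 to 936. A further, dimmer probe set of Ostc had its highest mean, 159.6, in CD8 T cells.

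Of the 6 cargo export and retrieval genes, 4 were higher in pDCs than in the mean of the other populations (18.6% of all genes) and 0 lower (21.6%). Tmed3, a p24 cargo receptor of transport vesicles, had signals of 2133 and 1905 in pDCs, 888 and 987 in CD8α cDCs and 578 and 541 in CD11b cDCs, against 278 and 239 in NK cells, 219.8, 125 and 144 in B cells and 194 and 209 in CD8 T cells. Both pDC arrays lay above all others and the order was pDCs, CD8α cDCs, CD11b cDCs and then the lymphocytes, with pDCs over CD8α cDCs by 1.11 ± 0.24 (SE; adjusted p = 0.00422) and CD11b cDCs over NK cells by 1.12 ± 0.24 (SE; adjusted p = 0.00327). In pairwise contrasts of the fit, 5 of the 45 genes were higher in pDCs than in CD8α cDCs (18.3% of all genes) and 3 lower (18.4%), and 25 were higher in pDCs than in NK cells (20.8%) and 2 lower (23.4%). CD11b cDCs exceeded NK cells in 8 genes (21.1%) and were lower in 9 (23.3%), and exceeded B cells in 14 (22.7%) and were lower in 4 (20.7%). For Tmed3, the neighbours CD8α and CD11b cDCs, NK and CD8 T cells, and CD8 T and B cells, did not differ by the test. Kdelr1, a receptor that returns ER residents from the Golgi, showed 561 and 646 in pDCs, 320.1 and 213 in CD8α cDCs and 299.7 and 292 in CD11b cDCs, against 291 and 312 in NK cells, 185, 129 and 196 in B cells and 231 and 196 in CD8 T cells, and exceeded the cDC mean in pDCs by 1.11 ± 0.21 (SE; adjusted p = 0.00175). Lman1, a lectin that carries glycoproteins out of the ER, had signals of 486 and 557 in pDCs, 292 and 297 in CD8α cDCs and 227 and 244 in CD11b cDCs, against 335 and 326 in NK cells, 307, 256 and 208 in B cells and 165 and 189 in CD8 T cells, with pDCs over NK cells, the next population, by 0.65 ± 0.19 (SE; adjusted p = 0.0184). Every pDC array of Kdelr1 and Lman1 lay above every other array. Tmed10, another p24 receptor, showed 1919 and 1651 in pDCs, 1523 and 1826 in CD8α cDCs and 888 and 1168 in CD11b cDCs, against 964 and 968 in NK cells, 868, 805 and 803 in B cells and 667 and 625 in CD8 T cells. Lman2, a lectin related to Lman1, showed 317 and 267 in pDCs, 363 and 297 in CD8α cDCs and 305 and 370.0 in CD11b cDCs, against 254 and 129 in NK cells, 95.6, 153 and 196 in B cells and 132 and 109 in CD8 T cells, with all 6 DC arrays above all lymphocyte arrays. Tmed10 was higher in pDCs, by 0.87 ± 0.14 (SE; adjusted p = 0.000524) against the mean of the others, and in CD8α cDCs, by 0.76 ± 0.14 (SE; adjusted p = 0.0011). Kdelr2 did not follow Kdelr1: its signals were 285 and 256 in pDCs, 315 and 403 in CD8α cDCs and 168 and 281 in CD11b cDCs, against 416 and 411 in NK cells, 312, 235 and 236 in B cells and 239 and 211 in CD8 T cells, highest in NK cells.

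Between the DC subsets, which share period and chip lot, much of the machinery was higher in CD8α than in CD11b cDCs, but not the stress and ERAD group. Of the 45 genes, 17 were higher in CD8α cDCs (8.96% of all genes) and 0 lower (10.6% of all genes; 0 at an unadjusted p under 0.05), with a median log2 difference of 0.70 against 0 for all genes, and 39 of the 45 differences were positive. The 17 were 6 chaperones, 6 translocation genes, 3 oligosaccharyltransferase subunits, Syvn1 and Tmed10. All differences of the chaperones (median 1.25), translocation genes (0.65) and oligosaccharyltransferase subunits (0.77) were positive. In the stress and ERAD group 4 of 8 were positive, with a median of 0.01, and in the export group 4 of 6, with a median of 0.52. In the fits below that leave 1 array in a cDC subset, calls over all genes also fell. Without B cell replicate 1 they rose from 1830 to 2413. In the fits tried the count ranged from 5 to 27: it was 5 without CD8α cDC replicate 2, 6 without CD11b cDC replicate 1, 9 without CD11b cDC replicate 2, 10 without CD8α cDC replicate 1 and 27 without B cell replicate 1. With the scan day as a fixed block 6 were called, within the first scan day 10, and without the 3 arrays whose sex-linked transcripts went against the labels 10, with 0 lower in each. The first scan day holds 1 CD11b cDC array, which is then assumed to vary like the other populations. Creld2, Rpn1, Sec61a1 and Sec63 were called in all.

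The pDCs differed from the mean of both cDC subsets in 13 genes. Of these 10 were higher (17.7% of all genes) and 3 lower (19.1%), so the share higher was near the background, and the split became 16 and 2 under invariant-rank scaling. The 10 higher were Dnajb9, Txndc5, Ern1, Sec63, Sec11c, Spcs2, Lman1, Tmed3, Tmed10 and Kdelr1, and 4 of the 6 export genes were among them. The 3 lower were Sdf2l1, Sel1l and Ost4. Without either pDC array, calls over all genes also fell, and without B cell replicate 1 they rose from 3446 to 4113. The count was 6 without pDC replicate 1, 8 without pDC replicate 2 and 20 without B cell replicate 1. It was 10 with the scan day as a fixed block and 14 within the first scan day. Ern1, Lman1, Spcs2 and Tmed3 passed in all 27 alternatives. The study drew its lists from these same arrays together with human and other mouse arrays. For pDCs it listed Ern1, Lman1, Txndc5 and Sec11c, and in the wider list Xbp1, Creb3l2, Alg2 and Bet1. Tmed3 was listed for all DCs and Syvn1 for B cells. The ER was also among the annotations it reported for its pDC genes. So neither the direction of these genes here nor the ER as a feature of pDCs is independent evidence.

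**Figure D4:**
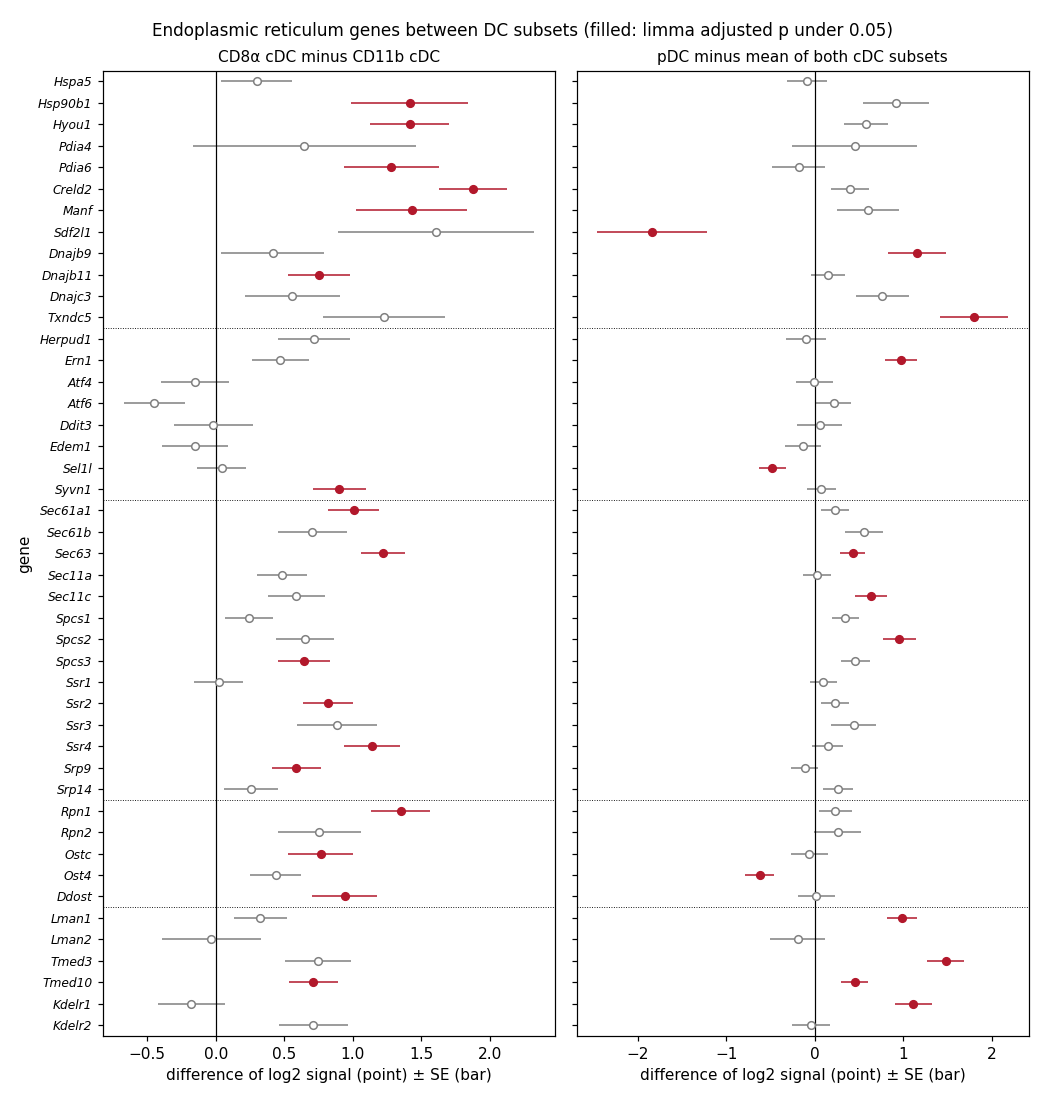
Points are differences of log2 signal with their SE (bars) for the 45 genes, CD8α minus CD11b cDCs on the left and pDCs minus the mean of both cDC subsets on the right; filled red points passed the limma test. On the left 39 of 45 points lie right of 0, and on the right Txndc5 and Tmed3 lie farthest above 0 and Sdf2l1 farthest below.

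Against B cells, pDCs had 30 genes higher (21.6% of all genes) and 2 lower (20.8%), with a median log2 difference of 0.94 against -0.03. The 2 lower genes were Syvn1, at -1.70 ± 0.17 (SE; adjusted p = 2.06e-05), and Ddit3, at -1.07 ± 0.26 (SE; adjusted p = 0.00763). The greatest differences were those of Tmed3, 3.67 ± 0.22 (SE; adjusted p = 2.81e-07), and Ern1, 3.49 ± 0.19 (SE; adjusted p = 1.21e-07). The pDC and B cell arrays share no scan period or chip lot, so these cannot be told apart from the cell type, and the comparisons above share arrays with each other.

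B cell replicate 1 was distinct for the chaperones. On this array 12 of 12 chaperones were above both other B cell arrays (43.4% of all genes), and 6 of 12 were at least 2-fold above both (4.72% of all genes). Hsp90b1 was 2157, 927 and 709 in replicates 1, 2 and 3, and Manf 1444, 565 and 557. Over all 45 genes 33 were above both, whereas among the 8 stress and ERAD genes 2 were. Some markers of plasma cells moved with it. Jchain, the joining chain of polymeric antibodies, was 7866, 92.1 and 332. Xbp1 was 1681, 533 and 639 and Derl3, an ERAD factor of plasma cells, 143, 19.5 and 28.9. Xbp1 and Derl3 also belong to the wider list of secretory genes, so they are not separate from the machinery. Tnfrsf17, the receptor BCMA, which did not pass the filter, was 43.9, 0.751 and 1.9. Mzb1, a chaperone of antibody assembly, was 2956, 1264 and 1546. Over the list of 8 plasma cell markers, 5 were higher in replicate 1 than in both others, and the summed signal of the B cell arrays ranged from 3778 to 13842. Sdc1, in contrast, was 82.8, 182 and 241, and Irf4 1030.5, 1651 and 1568. The remaining marker, Prdm1, was 39.6, 36.0 and 47.3. The neutrophil markers S100a8 and S100a9 were 438, 27.2 and 128 and 308, 23.8 and 97.3. The part of these transcripts' sources in the chaperone levels was not tested. The label of this array does not say follicular. It was made from 100 ng of RNA, against 50 ng for replicates 2 and 3, on another chip lot and in another set of sample names. These cannot be told apart from the cells on the array.

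**Figure D5:**
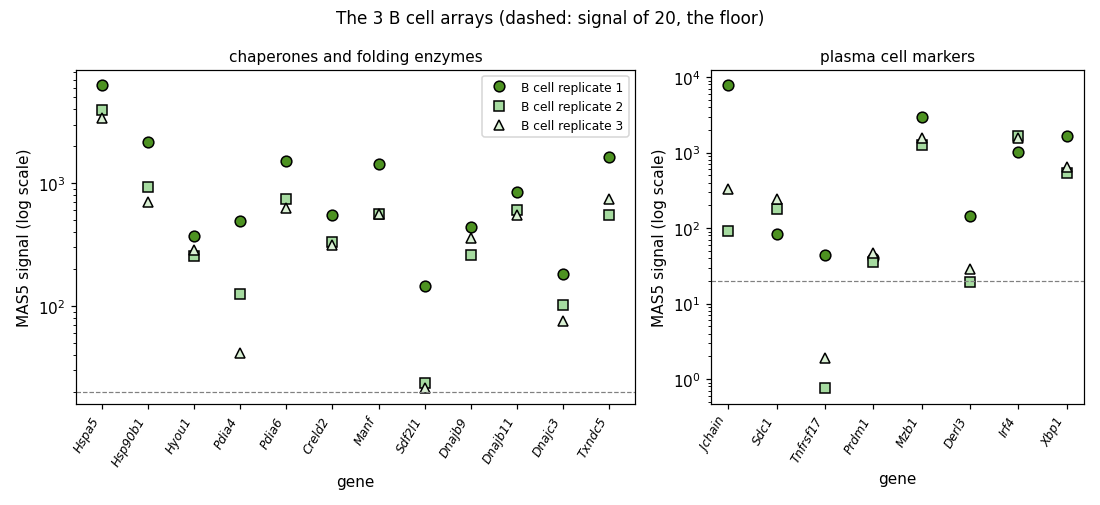
MAS5 signal (log scale) of the 12 chaperones (left) and 8 plasma cell markers (right) in the 3 B cell arrays, 1 symbol per array; the dashed line is the floor of 20. Circles, replicate 1, lie above both other symbols for all 12 chaperones and for Jchain, Mzb1, Xbp1, Derl3 and Tnfrsf17, but below them for Sdc1 and Irf4.

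Without B cell replicate 1, 32 genes were lower and 3 higher in B cells than in the mean of the others, and 35 were higher and 2 lower in pDCs than in B cells. Without it the calls over all 9380 genes also rose, from 4743 to 5247 for B cells against the mean of the others and from 3980 to 4630 for pDCs against B cells. The 2 remaining B cell arrays both had the lowest chaperone means of all arrays. Among pDCs, Jchain was 94.7 and 111, Tnfrsf17 7.06 and 9.54 and Mzb1 1709 and 1216.

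A wider list of 70 ER and secretory genes, chosen by function, gave 68 measured genes, of which 65 entered the test and 49 differed among populations, against 82.8% of all genes. In pDCs 28 were higher (18.6% of all genes) and 1 lower (21.6%) than the mean of the others, in CD8α cDCs 25 (23.4%) and 3 (26.6%), and in CD11b cDCs 3 (18.4%) and 19 (19%). Among lymphocytes 7 were higher (25.4%) and 17 lower (24.5%) in NK cells, 9 (22.6%) and 20 (28%) in B cells, and 4 (23%) and 24 (29.2%) in CD8 T cells. Between CD8α and CD11b cDCs 14 were higher (8.96%) and 0 lower (10.6%), and between pDCs and the cDC mean 19 were higher (17.7%) and 3 lower (19.1%). Sec24d, a cargo subunit of COPII vesicles, had signals of 1109.7 and 893 in pDCs, 294 and 321 in CD8α cDCs and 43.7 and 57.6 in CD11b cDCs, against 145 and 207 in NK cells, 102, 83.3 and 69.6 in B cells and 82.3 and 90.4 in CD8 T cells, and exceeded the cDC mean in pDCs by 3.00 ± 0.21 (SE; adjusted p = 1.01e-06). CD11b cDCs lay lowest for it, with CD8α cDCs above them by 2.62 ± 0.24 (SE; adjusted p = 1.87e-05). Wfs1, an ER membrane protein, showed 433 and 361 in pDCs, 53.6 and 55.2 in CD8α cDCs and 47.7 and 38.1 in CD11b cDCs, against 78.1 and 38.3 in NK cells, 60.4, 63.4 and 49.7 in B cells and 25.8 and 29.6 in CD8 T cells, with both pDC arrays above all others and 3.04 ± 0.25 (SE; adjusted p = 3.87e-06) from the cDC mean. Creb3l2, a transcription factor of secretory capacity, was 208 and 204 in pDCs, at most 66.4 elsewhere, and 2.68 ± 0.43 (SE) from the cDC mean. Only in pDCs did all arrays of Creb3l2 reach 50, so it too entered the test through the population where it is high. Its call is not support for a higher level there.

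Sil1, the nucleotide exchange factor of BiP, had signals of 647 and 559 in pDCs, 229 and 359 in CD8α cDCs and 148 and 191 in CD11b cDCs, against 174 and 147 in NK cells, 172, 108 and 92.5 in B cells and 90.0 and 145 in CD8 T cells, pDCs lying above all others. Xbp1, the factor whose mRNA Ire1α splices, showed 3165 and 3244 in pDCs, 1752 and 1735 in CD8α cDCs and 1156 and 1028 in CD11b cDCs, against 882 and 582 in NK cells, 1681, 533 and 639 in B cells and 602 and 502 in CD8 T cells. The pDC arrays were highest for Xbp1, at 1.82 ± 0.34 (SE; adjusted p = 0.00144) from the mean of the others. In CD8α cDCs the greatest differences of this list were those of Prdx4, an ER peroxidase, at 1.88 ± 0.19 (SE; adjusted p = 1.85e-05) from the mean of the others, and Pdia3, a disulphide isomerase of the peptide-loading complex, at 1.85 ± 0.23 (SE; adjusted p = 8.66e-05). In B cells Ero1b, an oxidase of disulphide formation, was 2329, 2136 and 2359, 1.97 ± 0.11 (SE; adjusted p = 1.69e-07) from the mean of the others. Eif2ak3 was 564, 1800.3 and 1435 in B cells, 1.91 ± 0.28 (SE; adjusted p = 0.000261) from the mean of the others, and B cell replicate 1 lay lowest of the 3 for this sensor.

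Fkbp2, a prolyl isomerase, was higher in CD8α than in CD11b cDCs by 1.45 ± 0.44 (SE; adjusted p = 0.0403), and Tusc3, an oligosaccharyltransferase subunit, by 1.43 ± 0.31 (SE; adjusted p = 0.00775). Gfpt1, the first enzyme of hexosamine synthesis, was lower in pDCs than in the cDC mean, at -1.33 ± 0.22 (SE; adjusted p = 0.000737), and higher in CD11b cDCs than in the mean of the others, at 1.20 ± 0.20 (SE; adjusted p = 0.000726). Krtcap2 was lower in CD11b cDCs, at -0.89 ± 0.13 (SE; adjusted p = 0.000364). In NK cells Dpagt1, the first enzyme of the N-glycan precursor, was at -1.27 ± 0.24 (SE; adjusted p = 0.00132) and Lman2l at -1.15 ± 0.34 (SE; adjusted p = 0.0174). In B cells Sec61a2 was at 1.21 ± 0.13 (SE; adjusted p = 2.33e-05) and Surf4, a cargo receptor, at -1.08 ± 0.12 (SE; adjusted p = 3.26e-05). In CD8 T cells Prdx4 was at -2.67 ± 0.19 (SE; adjusted p = 1.36e-06) and Ero1b at -2.62 ± 0.13 (SE; adjusted p = 7.1e-08).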

How the data were processed

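The 13 arrays (Affymetrix Mouse Genome 430 2.0) were labelled from RNA that the authors amplified in successive rounds, and the deposited values are the authors' MAS5 intensity, a linear signal per probe set. The 2% trimmed mean was 100 on each array, as in scaling to a common target. No floor or later normalization is in these values. By the platform annotation 34958 of the 45101 probe sets had a single gene (34754 matched to RefSeq by gene ID), 932 had more than 1 and 9211 had no gene. Each gene was represented by its single-gene probe set with the highest mean signal. Signals were floored at 20 and put on the log2 scale, and genes with at least 50 in all arrays of at least 1 population were kept (9380 of 18195). limma 3.58.1 in R 4.3.3 fitted 6 population means (7 residual degrees of freedom) with eBayes; the moderated F test, contrasts of each population against the mean of the other 5, and pairwise contrasts were two-sided, with Benjamini-Hochberg adjustment over all 9380 genes at 0.05. A log2 difference with values near the floor understates the change. Groups were taken from the labels. Precision is limited by how few arrays each population has. The test was checked on simulated data. The members and lists were chosen with earlier results of these data known, and the study listed some of the genes named for pDCs, B cells or all DCs from these arrays, so their levels there are not independent evidence. Values in every array are given for genes called in the F test with the 3 largest ranges of population means in their group and for genes called between pDCs and B cells; the other pathway genes named had the 5 largest differences of a comparison. Processing alternatives, the 2 added after seeing the data included, are given in the closing section. The scan day and chip lot were read from the deposited chip files.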

Additional observations from a re-analysis of the deposited data

How the results depend on the processing

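Each count of genes was recomputed without a floor, with a floor of 50, without the filter, after quantile or invariant-rank scaling, with an intensity trend, with the mean of all probe sets of a gene, with blocks or terms for replicate number, scan day and set of sample names, and without each array. Of 122 alternative counts that left out no single array, 111 stayed within 1.5 times. The exceptions were, for CD8α against CD11b cDCs (17 genes), 11 with no floor, 10 with no filter, 11 with quantile normalization, 27 with the term for the set of sample names, 6 with the scan day as a fixed block, 10 within the first scan day (where the lone CD11b cDC array is assumed to vary like the other populations) and 10 without the 3 arrays whose sex-linked transcripts went against their labels. For NK cells (20 genes) the count was 13 with no floor and 13 with no filter, for CD11b cDCs (12) it was 23 with the term for sample names, and for pDCs against the cDC mean (13) it was 20 with that term. Calls over all genes moved too. For CD8α against CD11b cDCs they went from 1830 to 1262 with no floor and to 1650 with quantile normalization. They were 2413 with the term for sample names and 1089 with the scan day as a fixed block. The cause was not tested.

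Leaving out 1 array at a time, the number of genes ranged from 41 to 44 among populations, from 16 to 29 for pDCs, from 17 to 31 for CD8α cDCs, from 6 to 19 for CD11b cDCs, from 6 to 26 for NK cells, from 22 to 35 for B cells, from 17 to 29 for CD8 T cells, from 6 to 20 for pDCs against the cDC mean, from 5 to 27 for CD8α against CD11b cDCs and from 24 to 37 for pDCs against B cells.

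Of 5139 recomputed single differences, 4508 kept their call, 625 lost it and 6 reversed. Of the 205 calls in the 9 comparisons, 84 held in all alternatives and 121 were lost or reversed in at least 1. The mean of all probe sets reversed Ssr4 (pDCs against the others -0.12, B cells against the others 0.086, pDCs against B cells -0.17), Ern1 in CD11b cDCs (-0.12) and Sec61a1 in NK cells (-0.18); the term for sample names reversed Sdf2l1 in CD8 T cells (0.83). The DC and NK cell replicates share 2 independent sorting experiments by the study's methods, but the labels do not tie a replicate number to a sort, and same-numbered arrays showed correlations of -0.20 to 0.18, which does not settle the pairing. With the replicate number as a block the counts were 43 among populations, 25 for pDCs, 29 for CD8α cDCs, 14 for CD11b cDCs, 19 for NK cells, 22 for B cells, 28 for CD8 T cells, 15 for pDCs against the cDC mean, 16 for CD8α against CD11b cDCs and 28 for pDCs against B cells. Under this block, calls over all 9380 genes also fell, from 4743 to 3696 for B cells and from 3980 to 3330 for pDCs against B cells. Invariant-rank scaling moved the median of all genes from -0.07 to -0.19 in CD8α cDCs and from -0.09 to 0.05 in CD8 T cells.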

Other observations

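For 33 of the 45 genes more than 1 probe set was annotated to the gene. Of these genes, 28 had a further probe set that reached 50 in a population. The further probe set was highest in the same population in 17 of the 28, and was higher in CD8α than in CD11b cDCs in 23 of the 28. Without both NK cell arrays, 24 genes differed in pDCs and 28 in CD8α cDCs from the mean of the remaining others. Calls over all 9380 genes fell as well, from 3765 to 3549 for pDCs and from 4691 to 4432 for CD8α cDCs.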
